A study of Homo sapiens with 12 samples.

Results

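The zinc finger genes of human chromosome 19 named ZNF form large clusters of transcription factor genes, and their RNA was followed here in CCRF-CEM, a cell line grown from a T-cell leukemia. Members were all chromosome 19 genes whose symbol is ZNF, a number and at most one letter from A to C, with at least 20 exonic reads in each of 12 libraries and a gene length under 500000 bases. Of 248 such genes listed on chromosome 19, 223 were members, out of 44147 features in all. The 25 others all missed the read minimum. ZNF793, with 18 exonic reads in its lowest library, and ZNF807, ZNF812 and ZNF285B, with 8 each, lay nearest outside, and ZNF114 with 20, ZNF132 with 27 and ZNF582 with 30 lay nearest inside. Not all genes left out were low throughout. ZNF471 (6 to 194 exonic reads) and ZNF626 (0 to 183) reached the minimum in 6 libraries each, and the rule leaves such genes out of the counts below. All 223 members passed the filter on low counts.

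The 4 groups held 3 libraries each. They were SLFN11-knockout CCRF-CEM cells labelled with 100 nM prexasertib for 6 h, SLFN11-knockout cells labelled DMSO, wild-type parent cells labelled with 100 nM prexasertib for 6 h, and wild-type parent cells labelled DMSO. SLFN11 is a protein that acts at stalled replication forks, prexasertib inhibits the checkpoint kinase CHK1, and DMSO is its solvent. The labels state neither how many clones the knockout cells come from, nor the time in DMSO, nor whether libraries sharing a label are independent cultures. The p-values therefore rest on spread between libraries that may be technical only.

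The records conflict with the library names over treatment. In 12 of 12 records the title carried the library name of a file that sits under the opposite treatment in that line. Grouping here follows the record that holds each file, hence the terms labelled prexasertib and labelled DMSO. Should the names be right and the records wrong, every treatment difference and every difference between the lines in it changes sign, and the 2 comparisons of the lines change places.

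Exonic reads summed to between 47887791 and 77548202 per library, of which the members took 0.38 to 0.552%. SLFN11 RNA was still read in knockout cells, at 85.0, 90.7 and 89.4 CPM (exonic reads per 1000000 after TMM scaling) labelled prexasertib and 65.9, 66.6 and 69.1 CPM labelled DMSO. Parent cells had 117, 119 and 117 CPM labelled prexasertib and 100.4, 91.2 and 95.2 CPM labelled DMSO. SLFN11 was lower in knockout cells by -0.41 under labelled prexasertib (edgeR adjusted p = 5.55e-07) and -0.51 under labelled DMSO (edgeR adjusted p = 6.02e-09), and RNA level alone does not check a knockout that leaves the transcript. The 20 T-lineage markers were all read, with summed levels of 2723 to 2769 CPM in knockout cells labelled prexasertib, 2688 to 2719 CPM in knockout cells labelled DMSO, 2348 to 2434 CPM in parent cells labelled prexasertib and 1997 to 2123 CPM in parent cells labelled DMSO, the group where the members were highest. Of the 7 B-lineage markers MS4A1 was at 0, and they summed to 26.7 to 43.7 CPM, most of it CD79A and CD79B, the 8 myeloid markers, with ELANE, CD33 and FCGR3A at 0, to 0.717 to 1.67 CPM, and the 15 epithelial, fibroblast and erythroid markers to 3.36 to 13.4 CPM, with EPCAM the main one in knockout cells. Their part in the results below was not tested. One library stood apart: labelled prexasertib parent replicate 1 had 30.3% of its reads in introns, against 23.9 to 26.4% in the 11 others, and a chi-square per degree of freedom of 32.6 and 37.5 against the other libraries of its group, where all other pairs within groups had 4.53 to 14.9.

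Most ZNF proteins of chromosome 19 carry an array of C2H2 zinc fingers, each able to read a few bases of DNA, and many carry a KRAB domain at the amino end. The KRAB domain binds TRIM28, also called KAP1, which brings in the histone H3 lysine methyltransferase SETDB1, heterochromatin proteins and histone deacetylases, so that the bound DNA is silenced. Many of the proteins bind retrotransposons, and the genes arose by tandem duplication and lie in clusters.

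The members lie in 10 stretches separated by at least 1000000 bases, plus 6 members outside them, from chr19:2819872 to chr19:58992597 in hg19. The longest list, 57 members, fills the stretch from ZNF628 to ZNF446 near the chromosome end, and the next are 37 members from ZNF175 to ZNF331, 28 from ZNF101 to ZNF254, 26 from ZNF653 to ZNF791 and 25 from ZNF565 to ZNF573. A GENCODE v29 coding sequence was found for 221 members. Their translation held a median of 12 C2H2 finger matches and at most 31, in ZNF91, while ZNF738 held none. A KRAB-like pattern was matched in 174 and not in 47, and the pattern may miss a KRAB domain.

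Promoters from 250 bases before to 50 bases after the transcript start were found for 196 members in RefSeq GRCh38.p14, and in 173 of them the bases after the start were found in a GENCODE v29 transcript of the same symbol. The letters CCGGAAG, a core bound by ETS family factors, stood on one or the other strand of 47.4% of these promoters, of 13.8% of the 1314 promoters of other chromosome 19 genes and of 10.7% of 27305 promoters in all. The GC box GGGCGG was in 66.8% of member promoters, 61.4% of the other chromosome 19 promoters and 44.6% of all. Matches to TGANTCA (AP-1) were in 6.63, 5.4 and 7.76%, to TGACGTCA (CRE) in 3.06, 3.35 and 1.98%, to an NRF1 motif in 2.04, 2.66 and 1.36%, and to a palindromic CG motif in 1.02, 0.228 and 0.469%, in the same order of promoter sets. Overlaps between motifs were not removed. Both comparison sets were taken without the read minimum that members had to pass, so genes with few or no reads may be among them. The 1314 promoters are therefore not those of the 1087 chromosome 19 genes compared below. Differences in motif share between the sets were not tested. The median number of CG dinucleotides in 300 bases was 20 in member promoters, 19 in those of other chromosome 19 genes and 14 in all.

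Promoters of 4 members show how the ETS letters sit in genes described below. ZNF773 had one of the lowest labelled prexasertib to labelled DMSO ratios in parent cells, ZNF43 and ZNF274 have known roles, and ZNF180 is one of the few members called higher there. Capitals mark CCGGAAG or its reverse complement, and each sequence reads 5′ to 3′ on the gene's strand.
ZNF773: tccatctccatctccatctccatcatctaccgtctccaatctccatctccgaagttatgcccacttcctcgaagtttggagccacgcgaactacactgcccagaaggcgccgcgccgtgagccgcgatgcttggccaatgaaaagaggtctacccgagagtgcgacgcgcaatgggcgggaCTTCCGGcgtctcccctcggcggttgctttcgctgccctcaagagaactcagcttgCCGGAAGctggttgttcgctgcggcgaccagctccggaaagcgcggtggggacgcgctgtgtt
ZNF43: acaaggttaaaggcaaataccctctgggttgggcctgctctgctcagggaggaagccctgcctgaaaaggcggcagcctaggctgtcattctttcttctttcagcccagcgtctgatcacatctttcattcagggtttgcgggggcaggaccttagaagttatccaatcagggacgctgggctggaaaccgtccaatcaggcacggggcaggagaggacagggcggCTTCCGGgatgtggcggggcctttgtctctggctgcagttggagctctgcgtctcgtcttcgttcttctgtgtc
ZNF274: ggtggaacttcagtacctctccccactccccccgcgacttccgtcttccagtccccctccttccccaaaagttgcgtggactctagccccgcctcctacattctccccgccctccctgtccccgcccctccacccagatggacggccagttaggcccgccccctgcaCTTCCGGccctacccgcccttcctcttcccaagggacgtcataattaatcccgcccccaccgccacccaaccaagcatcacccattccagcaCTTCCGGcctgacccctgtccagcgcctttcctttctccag
ZNF180: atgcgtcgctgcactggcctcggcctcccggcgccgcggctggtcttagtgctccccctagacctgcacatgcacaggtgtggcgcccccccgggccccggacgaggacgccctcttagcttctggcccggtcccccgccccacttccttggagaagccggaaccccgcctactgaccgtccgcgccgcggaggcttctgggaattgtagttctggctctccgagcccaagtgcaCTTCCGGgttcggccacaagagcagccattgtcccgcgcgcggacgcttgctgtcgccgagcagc
These lie at chr19:57499688-57499987 on the plus strand (ZNF773, 2 matches and 30 CG dinucleotides), chr19:21836133-21836432 on the minus strand (ZNF43, 1 match and 12 CG), chr19:58182811-58183110 on the plus strand (ZNF274, 2 matches and 16 CG) and chr19:44500473-44500772 on the minus strand (ZNF180, 1 match and 31 CG), all in GRCh38.p14.

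Member levels were low to moderate. Over all libraries the median member had 4.03 exonic TPM, the authors' deposited abundance per exon length. ZNF146, made up almost only of zinc fingers, was the highest at 33.1 TPM, followed by ZNF428 at 25.6, ZNF91 at 19.5 and ZNF460 at 19.4 TPM. ZNF114 was the lowest at 0.202 TPM. The group medians over members were 3.88 TPM in knockout cells labelled prexasertib, 3.88 TPM in knockout cells labelled DMSO, 3.64 TPM in parent cells labelled prexasertib and 4.46 TPM in parent cells labelled DMSO.

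Among the 4 groups, 3 lay close together and the parent libraries labelled DMSO stood above them. The members' CPM values summed to 3723, 3730 and 3844 in knockout cells labelled prexasertib, 3936, 3884 and 3870 in knockout cells labelled DMSO, 3997, 4019 and 3972 in parent cells labelled prexasertib, and 5647, 5412 and 5581 in parent cells labelled DMSO. No parent library labelled DMSO overlapped any of the other 9. Member by member, 150 of 223 had all 3 parent libraries labelled DMSO above all 9 others, where 13.4% of all genes tested did, and 1 had them below. Over all genes 24.6% lay apart in one direction or the other. In bulk RNA, fewer cells with a transcript and less RNA per cell cannot be told apart.

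**Figure D1:**
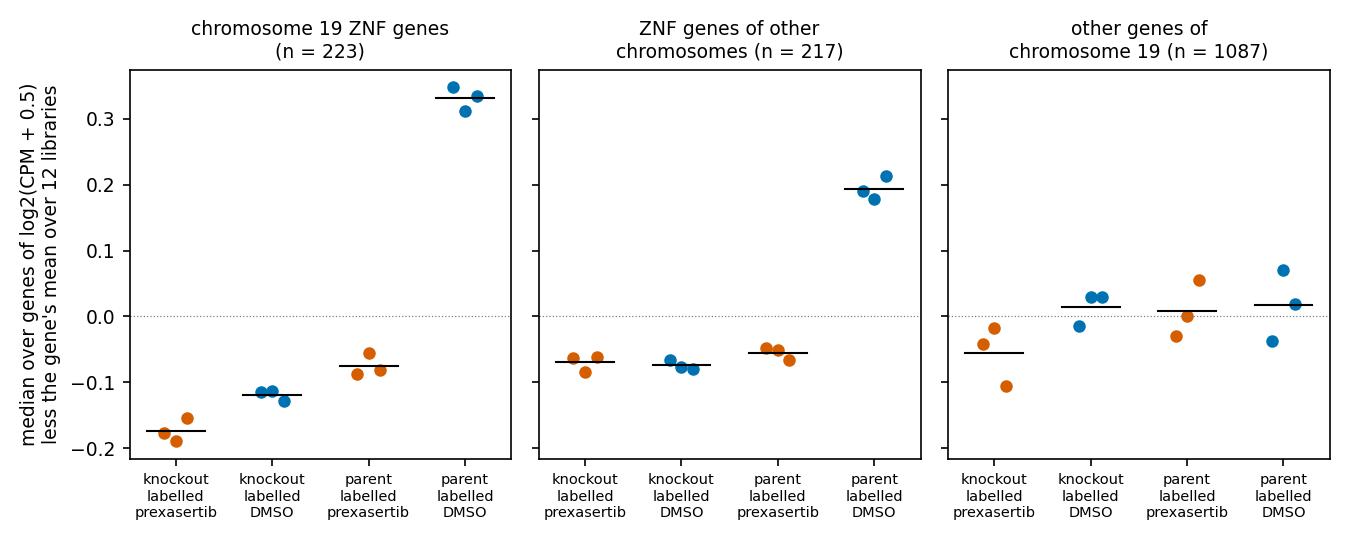
Each point is 1 library, and its height is the median over genes of the log2(CPM + 0.5) less that gene's mean over the 12 libraries, with a line at the mean of the 3 libraries. The 3 parent libraries labelled DMSO sit at 0.312 to 0.348 for the chromosome 19 ZNF genes, against -0.189 to -0.0562 in the 9 others, and at 0.178 to 0.213 for ZNF genes of other chromosomes, while the other genes of chromosome 19 show no such gap.

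In parent cells, 163 of 223 members were lower in labelled prexasertib than in labelled DMSO and 5 were higher, and the median member differed by -0.40 on the log2 scale. Among all 23045 genes tested, 18.2% were lower and 18.2% higher, with a median of 0.04. A gene is called throughout where edgeR's quasi-likelihood test on exonic counts gave an adjusted p (Benjamini-Hochberg, over all genes) no higher than 0.05. Changes of 2-fold or more were found in 18 members, all of them lower. The share of all genes at that size is not given here, so this count only describes the members. ZNF genes of other chromosomes, under the same read and length rule, gave 129 lower and 29 higher of 217 with a median of -0.26, and the 1087 chromosome 19 genes with other names gave 236 lower and 246 higher with a median of 0.02. These differences between gene sets were not tested. Without labelled prexasertib parent replicate 1, 175 members were lower and 3 higher.

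The members with the lowest ratios were lower by more than 2-fold. ZNF773 (hg19 chr19:58011283-58029772, 9 finger matches, KRAB match) had 8.50, 8.86 and 9.99 CPM in labelled prexasertib, against 27.7, 26.7 and 24.7 CPM in labelled DMSO. The groups lay far apart, with a log2 fold change of -1.54 (SE 0.09, edgeR adjusted p = 4.54e-13). In ZNF441 (chr19:11877815-11894893, 14 finger matches) the libraries labelled prexasertib had 8.46, 8.62 and 9.63 CPM, against 25.2, 24.3 and 23.8 CPM in labelled DMSO. That is a log2 fold change of -1.46 (SE 0.08, edgeR adjusted p = 1.92e-13), and all of its exonic reads lie outside other genes. ZNF569 (chr19:37902057-37960177, 18 finger matches) had 15.8, 15.3 and 15.99 CPM, against 39.6, 38.9 and 39.7 CPM in labelled DMSO. Both groups were tight, and the log2 fold change was -1.33 (SE 0.06, edgeR adjusted p = 1.45e-15).

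ZNF888 (-1.54), ZNF442 (-1.29), ZNF671 (-1.28), ZNF844 (-1.27), ZNF675 (-1.19) and ZNF226 (-1.09) were also lower by these log2 fold changes, each with no overlap between the groups. ZNF671, a gene often found methylated in tumours, had 15.9, 14.7 and 15.8 CPM, against 35.2, 38.0 and 39.2 CPM in labelled DMSO. Every exonic read of ZNF671 overlaps another annotated gene, AC003006.7. Exonic reads of other members named by the same rule also overlap another annotated gene: ZNF222 (-1.47) has 0.1% of its exonic reads outside ZNF223, ZNF93 (-1.36) has 0.7% outside AC007204.2, although that feature averaged 209.2 exonic reads per library against 2530 for ZNF93, and ZNF701 (-1.30) has 15.7% outside ZNF808 and other genes. Reads outside other genes were under 50% of exonic reads in 77 members and at least 95% in 110. When only reads outside other genes were counted, 118 of the 185 members still tested were lower and 3 were higher, with a median of -0.41, while ZNF93, with few such reads, had 0.02 (SE 0.42, edgeR adjusted p = 0.974).

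**Figure D2:**
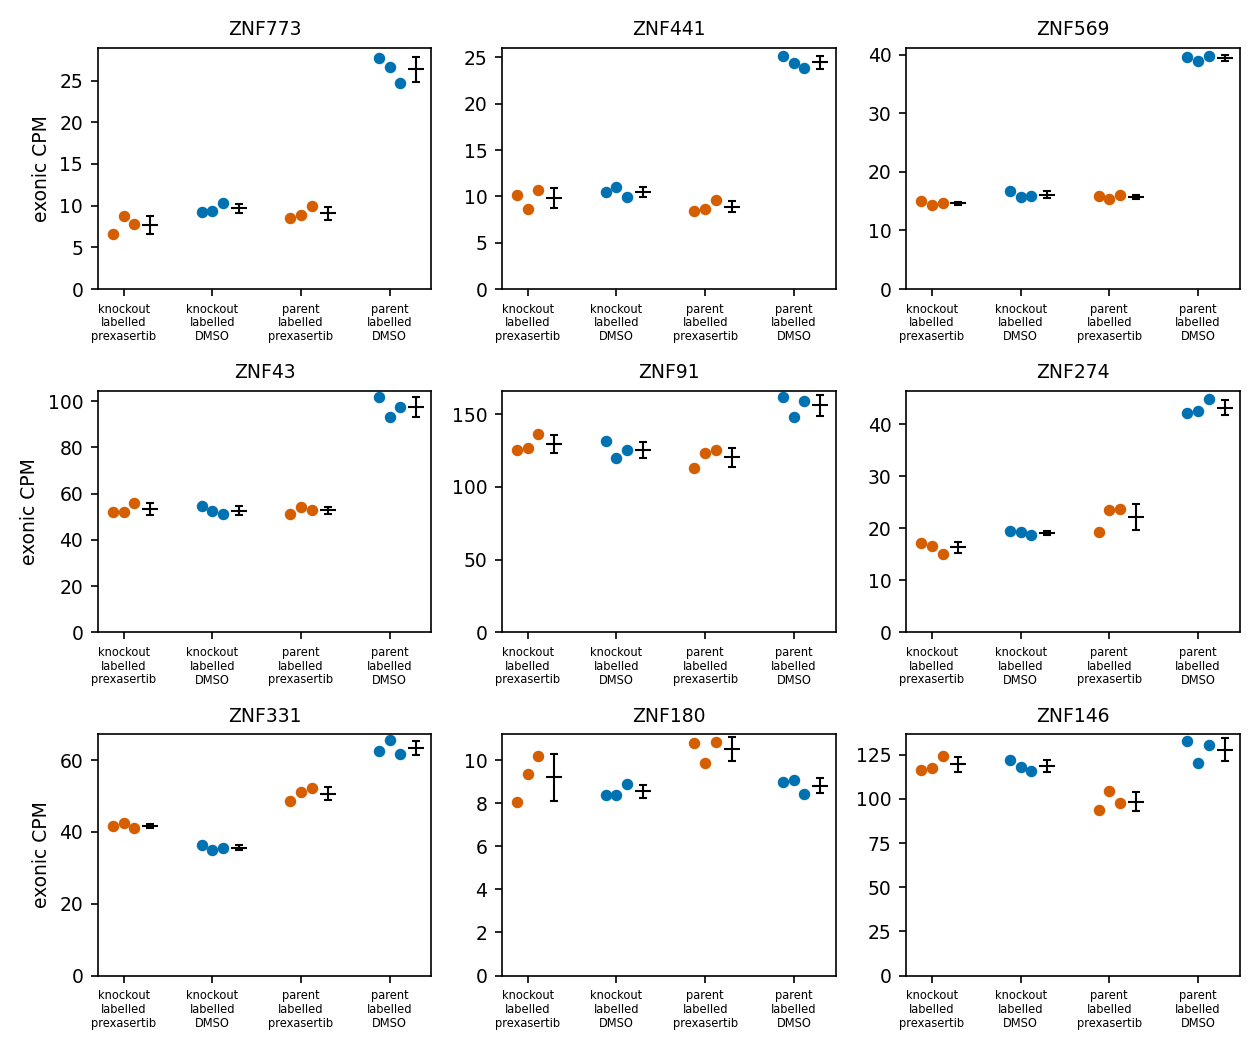
Exonic CPM of 9 members by library, with the group mean and SD drawn beside the 3 points of each group. In 7 of them the parent libraries labelled DMSO are above all others. In ZNF180 and ZNF146 they are not, and in ZNF180 the parent libraries labelled prexasertib lie above those labelled DMSO.

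Members with a known role were mostly among those lower in parent cells, as were most members. Their list was written with earlier results of these data known, so its counts are a description only. Of 13 tested from a list of 14 (ZNF208 was not tested), 12 were lower and none was higher in labelled prexasertib, with a median of -0.68. ZNF274, which binds the 3′ ends of other zinc finger genes and recruits SETDB1 to them, had 19.3, 23.5 and 23.7 CPM, against 42.2, 42.6 and 44.9 CPM in labelled DMSO, a log2 fold change of -0.96 (SE 0.07, edgeR adjusted p = 3.34e-11). ZNF43 had 51.2, 54.2 and 52.7 CPM, against 102, 93.1 and 97.6 CPM in labelled DMSO, a log2 fold change of -0.89 (SE 0.05, edgeR adjusted p = 5.43e-13). ZNF91, which silences SVA retrotransposons in primates, moved less, with 113, 123 and 125 CPM against 162, 148 and 159 CPM in labelled DMSO and a log2 fold change of -0.37 (SE 0.05, edgeR adjusted p = 4.24e-06). Neither pair of groups overlapped.

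ZNF350, also called ZBRK1 and a partner of BRCA1, was lower by -0.81, ZNF304 by -0.76, ZNF420 by -0.69, and ZNF432, a protein of the DNA damage response, by -0.68. ZNF473, which acts in the 3′ end processing of histone mRNA, differed by -0.44, ZNF224 by -0.37, ZNF382 by -0.37 and ZNF331, an imprinted gene in some human tissues, by -0.32. ZNF175, with 16.8, 15.4 and 14.9 CPM against 18.3, 16.5 and 18.96 CPM in labelled DMSO, was not called (edgeR adjusted p = 0.0829). ZNF350, ZNF420, ZNF224 and ZNF473 have 6.6, 12.1, 12.6 and 21.7% of their exonic reads outside other genes, and with those reads alone none of the 4 passed, at edgeR adjusted p values of 0.0607, 0.106, 0.0959 and 0.498.

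Of the 5 members called higher in parent cells, 4 had log2 fold changes of 0.20 to 0.25. ZNF180 had 10.8, 9.87 and 10.8 CPM in labelled prexasertib, against 8.98, 9.06 and 8.43 CPM in labelled DMSO, a log2 fold change of 0.25 (SE 0.09, edgeR adjusted p = 0.0342). ZNF71 had 21.3, 21.5 and 23.4 CPM, against 17.9, 19.96 and 19.7 CPM, a log2 fold change of 0.20 (SE 0.08, edgeR adjusted p = 0.0346). ZNF576 (0.23) has 1.7% of its reads outside SRRM5, and with those alone it turned to -0.51 without a call. ZNF132 (0.76) is one of the lowest members, at 1.199, 0.536 and 0.763 CPM against 0.439, 0.512 and 0.530 CPM, and ZNF428 (0.21) had overlapping groups. Of the exonic reads of ZNF428, 10.7% lie outside SRRM5. ZNF180, ZNF71 and ZNF576 lost the call in 5, 4 and 5 of 6 fits that left out 1 library, at adjusted p values of up to 0.124, 0.302 and 0.248.

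In knockout cells the members differed far less between the treatments. No member changed 2-fold, and the share of all genes at that size is not given here. Of 223, 22 were lower and 2 higher in labelled prexasertib, with a median of -0.06, while 6.83% of all genes were lower and 6.11% higher. With limma on log2(TPM + 1) 7 were lower and 2 higher, and with only the knockout libraries fitted 35 were lower and 8 higher. ZNF671 had 12.21, 13.3 and 11.9 CPM, against 17.7, 17.9 and 17.0 CPM in labelled DMSO, a log2 fold change of -0.49 (SE 0.07, edgeR adjusted p = 9.09e-06). ZNF329 differed by -0.42 (SE 0.08, edgeR adjusted p = 0.000623), ZNF844 by -0.37 (SE 0.07, edgeR adjusted p = 0.00114), ZNF701 by -0.33 and ZNF28 by -0.32, and none of these overlapped between the groups. ZNF331 was higher, at 41.6, 42.4 and 41.2 CPM against 36.4, 34.9 and 35.4 CPM in labelled DMSO, a log2 fold change of 0.23 (SE 0.05, edgeR adjusted p = 0.00348). ZNF524 was the other member called higher (0.42), and it lost the call in 3 of 6 fits that left out 1 library. In those 6 fits the number lower ranged between 12 and 17, and 10 of the 16 named members lost the call at least once, ZNF888, ZNF414, ZNF805, ZNF699, ZNF460, ZNF274, ZNF492, ZNF45 and ZNF235 among them.

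Among the members with a known role, ZNF274 was lower in knockout cells by -0.23 (SE 0.07, edgeR adjusted p = 0.0342), and ZNF331 was higher. The other 11 did not pass. ZNF43 had 52.0, 52.0 and 56.1 CPM in labelled prexasertib, against 54.6, 52.3 and 51.1 CPM in labelled DMSO, and ZNF91 had 125, 127 and 136 CPM, against 131, 119.8 and 125 CPM. In both the groups overlapped.

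The difference between the lines was tested as an interaction, the labelled prexasertib effect in knockout cells minus that in parent cells. It was above 0 in 116 of 223 members and below 0 in 2, with a median of 0.37, where 9.53% of all genes were above and 7.32% below with a median of -0.03. On log2(TPM + 1) with limma 73 were above 0 and 3 below, with a median of 0.19. All 116 were members called lower in parent cells. In 196 members parent cells had the log2 fold change of greater size, 20 members were lower in both lines, and 22 members were called in none of the 5 comparisons. The shares of all genes with these patterns were not computed, so these counts describe the members alone. Of the 217 ZNF genes of other chromosomes, 92 were above 0 and 6 below, with a median of 0.25, and of the 1087 other chromosome 19 genes 90 were above and 143 below, with a median of -0.10. The interaction uses the same libraries as the 2 treatment comparisons. Without labelled prexasertib parent replicate 1, 141 members were above 0 and 4 below.

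**Figure D3:**
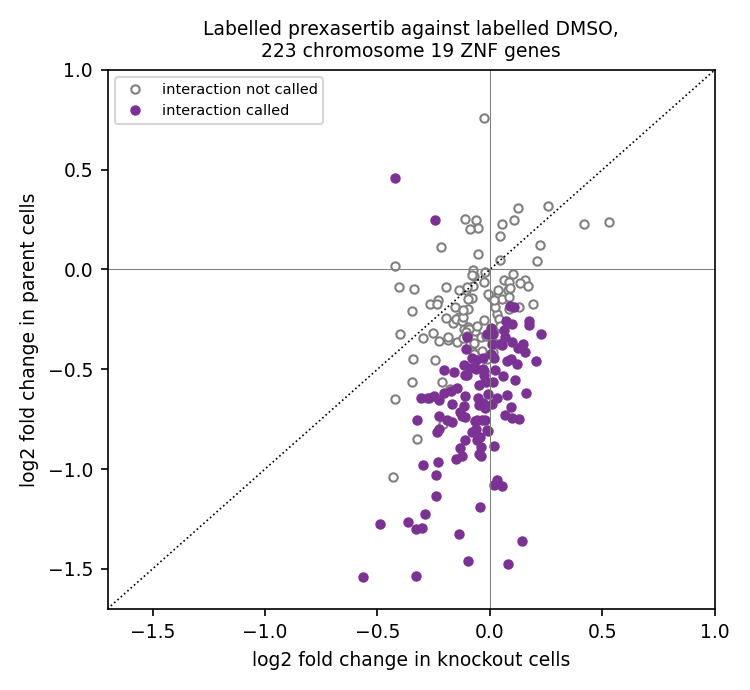
Each point is 1 of the 223 members, with its log2 fold change of labelled prexasertib against labelled DMSO in knockout cells on the x axis and in parent cells on the y axis. Filled points are called in the interaction, and the dotted line marks equal change. The cloud is tall and narrow: knockout values run between -0.57 and 0.53 and parent values between -1.54 and 0.76.

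ZNF441, with all exonic reads outside other genes, was among the members with a called interaction. Its knockout libraries had 10.1, 8.59 and 10.6 CPM in labelled prexasertib, against 10.4, 11.002 and 9.94 CPM in labelled DMSO, all near the parent level in labelled prexasertib and far below the parent level in labelled DMSO, and the interaction was 1.36 (SE 0.12, edgeR adjusted p = 4.86e-09). ZNF773 had 6.58, 8.75 and 7.76 CPM in knockout cells labelled prexasertib, against 9.24, 9.42 and 10.3 CPM labelled DMSO, with an interaction of 1.21 (SE 0.13). ZNF569 differed by 1.19 (SE 0.08), ZNF675 by 1.14 (SE 0.10), ZNF226 by 1.14 (SE 0.10), ZNF416 by 1.10 (SE 0.13), ZNF43 by 0.90 (SE 0.08), ZNF274 by 0.73 (SE 0.10), ZNF331 by 0.55 (SE 0.07) and ZNF91 by 0.42 (SE 0.08), all past the threshold. Nearly all reads of ZNF222 (1.55) and ZNF93 (1.501) overlap other genes, and on its few reads outside them ZNF93 had -0.74 with a wide error (SE 0.62, edgeR adjusted p = 0.455). The 2 members below 0 were ZNF865 (-0.88, SE 0.26) and ZNF575 (-0.49, SE 0.15), each losing the call in 9 of 12 fits that left out 1 library. Of the exonic reads of ZNF575, 12.4% lie outside ETHE1. ZNF865 had 8.43, 4.67 and 4.45 CPM in parent cells labelled prexasertib, where replicate 1 stands apart, and without that library its interaction was -0.49 (edgeR adjusted p = 0.0471).

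Under labelled DMSO, 176 of 223 members were lower in knockout than in parent cells and 6 were higher, with a median of -0.48, where 20.4% of all genes were lower and 19.6% higher. This comparison shares its parent libraries with the treatment comparison in parent cells. All 13 listed members with a known role were lower, as were most members. Among the 13 were ZNF274 (-1.17), ZNF420 (-0.90), ZNF43 (-0.89), ZNF331 (-0.83) and ZNF91 (-0.32). ZNF416 had 5.94, 5.84 and 5.55 CPM in knockout cells, against 15.4, 16.7 and 17.9 CPM in parent cells, a log2 fold change of -1.52, with no overlap. ZNF582 (-1.91), ZNF418 (-1.65), ZNF222 (-1.64), ZNF154 (-1.63), ZNF773 (-1.45), ZNF93 (-1.44) and ZNF542 (-1.39) were likewise lower. Reads outside other genes make up 0.1, 0, 0.7 and 21.8% of the exonic reads of ZNF222, ZNF154, ZNF93 and ZNF542, and 12.1% of those of ZNF420. In ZNF582, ZNF418 and ZNF773 they make up 93.2, 100 and 81.8%. The 6 called higher were ZNF132 (1.14), ZNF358 (0.78), ZNF575 (0.34), ZNF428 (0.31), ZNF69 (0.25) and ZNF439 (0.21), the last losing the call in 1 of 6 fits without 1 library. ZNF575 and ZNF428 have 12.4 and 10.7% of their exonic reads outside other genes. On log2(TPM + 1) with limma 98 were lower and 16 higher with a median of -0.16, and on that scale the median of all genes lay at 0.15, against -0.01 on counts.

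Under labelled prexasertib the lines lay closer: 59 members were lower and 14 higher in knockout than in parent cells, with a median of -0.11, where 13.5% of all genes were lower and 14.5% higher. On log2(TPM + 1) the split turned, with 18 lower, 40 higher and a median of 0.04. The median of all genes lay at 0.08 on that scale, against -0.02 on counts. The members' median was thus below that of all genes on both. Of the 59, 30 lie among the 57 members of the last stretch of the chromosome, from chr19:55987699 to chr19:58992597 in hg19, which held no member called higher and had a median of -0.25.

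The members lowest in knockout cells under labelled prexasertib were mostly in this stretch. ZNF154 (chr19:58208735-58220579), which like ZNF582 is a known methylation marker of tumours, had 2.41, 2.94 and 2.49 CPM in knockout cells, against 7.91, 8.33 and 6.34 CPM in parent cells, a log2 fold change of -1.53 (SE 0.13, edgeR adjusted p = 6.34e-10). Under labelled DMSO it had 3.01, 2.62 and 2.997 CPM, against 9.49, 8.03 and 9.23 CPM in parent cells (-1.63, SE 0.12), and the lines again did not overlap. All of its exonic reads overlap other genes. ZNF135 (chr19:58570607-58597677) had 11.5, 11.1 and 11.9 CPM, against 26.2, 25.4 and 24.6 CPM in parent cells under labelled prexasertib, a log2 fold change of -1.14 (SE 0.06, edgeR adjusted p = 2.80e-13). Under labelled DMSO it had 12.16, 12.21 and 11.8 CPM in knockout cells, against 25.4, 26.3 and 26.5 CPM in parent cells, and 27.7% of its reads lie outside other genes.

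ZNF582 (chr19:56887413-56904914) had 0.525, 0.522 and 0.590 CPM in knockout cells, against 1.15, 1.35 and 1.57 CPM in parent cells under labelled prexasertib (-1.30, SE 0.21), and 0.803, 0.747 and 0.646 CPM, against 2.65, 2.88 and 2.81 CPM under labelled DMSO (-1.91, SE 0.19). ZNF542 (-1.15), ZNF418 (-1.08), ZNF329 (-0.88) and ZNF470 (-0.80) were also lower in knockout cells under labelled prexasertib, with no overlap between the lines. Of the exonic reads of ZNF542, 21.8% lie outside other genes. ZNF329 had 9.40, 8.82 and 10.7 CPM, against 16.5, 17.8 and 19.04 CPM in parent cells, with all of its reads outside other genes.

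ZNF358 was higher in knockout cells under both labels, with no overlap in either. It had 9.75, 11.3 and 7.91 CPM, against 6.87, 6.38 and 7.63 CPM in parent cells under labelled prexasertib (0.48, SE 0.11, edgeR adjusted p = 0.00258), and 9.62, 10.3 and 10.4 CPM, against 5.44, 6.64 and 5.48 CPM under labelled DMSO (0.78, SE 0.11, edgeR adjusted p = 3.62e-06). ZNF442 (0.48), ZNF625 (0.41), ZNF600 (0.38) and ZNF681 (0.35) were higher under labelled prexasertib. ZNF442 had 3.15, 2.83 and 3.02 CPM in knockout cells there, against 2.09, 2.26 and 2.10 CPM in parent cells, while every exonic read of ZNF625 overlaps another gene. ZNF763 (0.31) turned to -0.12 without a call when intronic reads were added, ZNF709 (0.29) to -0.27 on reads of its own, and ZNF763, ZNF709 and ZNF600 lost the call in 5, 3 and 2 of 6 fits without 1 library.

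Along the chromosome, every one of the 10 stretches had a median below 0 in the parent comparison. The 28 members from ZNF101 to ZNF254 (chr19:19779605 to chr19:24312654 in hg19) had the lowest median, -0.60, with 24 lower and none higher, and an interaction above 0 in 23 of 28 with a median of 0.56. The 25 members from ZNF565 to ZNF573 had 20 lower and a median of -0.45, the 37 from ZNF175 to ZNF331 had 31 lower and a median of -0.41, and the 57 of the last stretch had 37 lower and 2 higher with a median of -0.32. The 19 members from ZNF575 to ZNF180 held 3 of the 5 members called higher, ZNF180, ZNF576 and ZNF428, beside 12 lower ones. In knockout cells the stretch medians lay between -0.12 and 0.04, the last stretch being lowest with 10 of 57 members lower and 1 higher. For comparison, 18.2% of all genes were lower and 18.2% higher in parent cells, and 9.53% had an interaction above 0. In knockout cells 6.83% of all genes were lower and 6.11% higher. Differences between stretches were not tested.

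**Figure D4:**
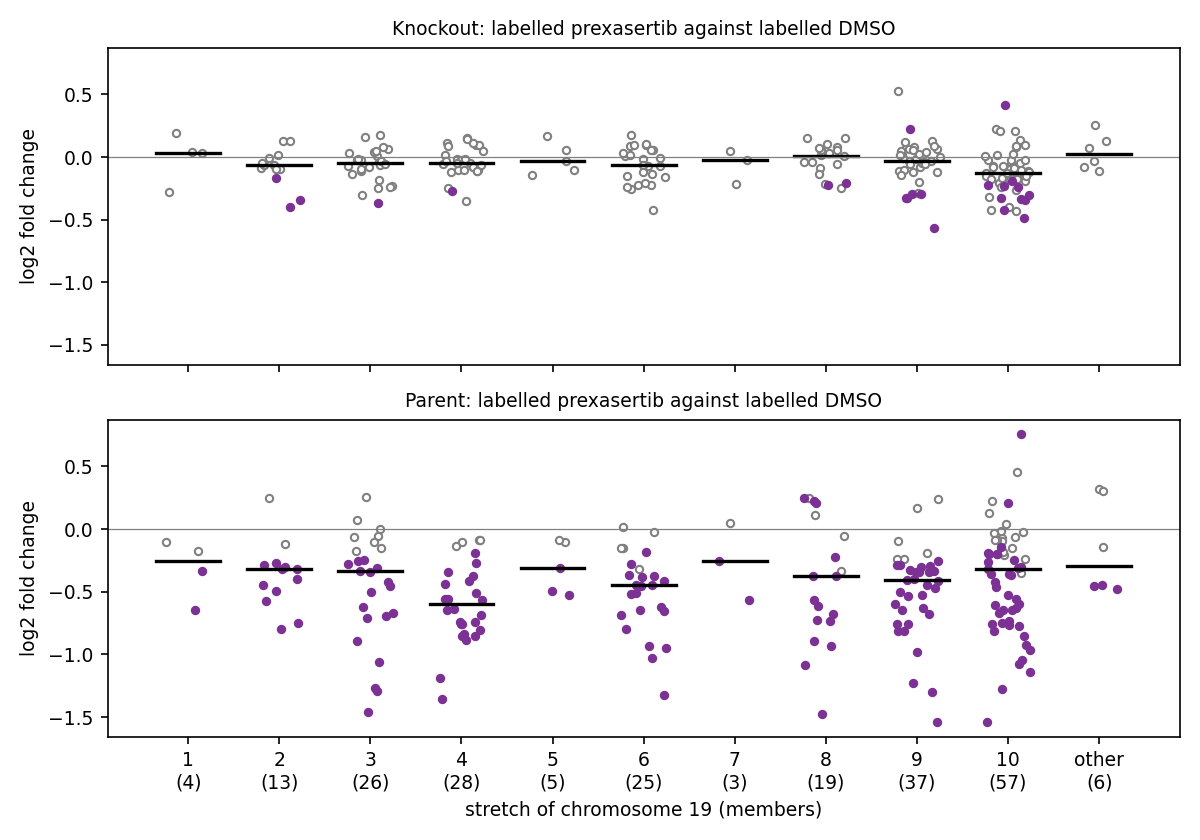
Log2 fold change of labelled prexasertib against labelled DMSO for each member, by stretch of chromosome 19 in order, in knockout cells above and parent cells below. Filled points passed the test and bars are medians, which lie near 0 in knockout cells and below 0 in all 10 stretches in parent cells.

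Members with a KRAB match had lower parent ratios than those without. In the parent comparison 135 of 174 with a match were lower and 2 higher, with a median of -0.45, and 26 of 47 without a match were lower and 3 higher, with a median of -0.20. The interaction was above 0 in 100 of 174 and in 15 of 47. Of all genes, 18.2% were lower in parent cells and 9.53% had an interaction above 0. This difference between the 2 kinds of member was not tested. As the pattern may miss a KRAB domain, members without a match may still carry one. By finger number the counts lay close together: 30 of 43 members with 1 to 8 matches were lower in parent cells, 81 of 108 with 9 to 14 and 50 of 69 with 15 or more, and Spearman's rho between finger matches and the parent log2 fold change was 0.03 across 221 members, which share their libraries.

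ETS letters and level went with small differences in the parent comparison, where 18.2% of all genes were lower. Of 93 members with the ETS letters in the promoter 71 were lower, with a median of -0.44, and of 103 without them 71 were lower, with a median of -0.37. By level, 48 of 74 members of lowest mean TPM were lower, 53 of 74 of middle and 62 of 75 of highest mean TPM, with medians of -0.37, -0.39 and -0.43. Across 196 members Spearman's rho between the number of CG dinucleotides in the promoter and the parent log2 fold change was 0.19, as a description only.

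Intronic reads come mostly from RNA not yet spliced, and 222 members could be tested on them. With scaling from the intronic reads themselves, 66 members were lower and 6 higher in parent cells labelled prexasertib, with a median of -0.13, where 15.6% of all 19852 genes were lower and 30.8% changed in either direction. In knockout cells 4 were lower and 1 was higher, where 6.15% of all genes were lower and 12% changed in either direction. The interaction was above 0 in 32 members and below 0 in 1, where 5.82% of all genes were above 0 and 9.84% changed in either direction. Between the lines, 105 members were lower and 3 higher in knockout cells under labelled DMSO (16% of all genes lower, 30.3% changed) and 44 were lower and 4 higher under labelled prexasertib (9.16% of all genes lower, 18.8% changed).

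The direction of the members' median on intronic reads depended on the scaling. With the library sizes and factors of the exonic reads, 34 members were lower and 32 higher in parent cells labelled prexasertib, with a median of 0.08, where the median of all genes moved to 0.20 and 8.08% of them were lower and 28.3% higher. The interaction then had a median of -0.09, with 11 members above 0 and 3 below, against a median of -0.21 over all genes, of which 1.97% were above and 6.19% below. In parent cells the members' median lay below that of all genes under both scalings. The share of the members' reads that were intronic was 46.8, 42.8 and 42.7% in parent cells labelled prexasertib, against 37.6, 36.4 and 36.3% in parent cells labelled DMSO, and 41.8, 41.4 and 41.7% in knockout cells labelled prexasertib, against 41.0, 41.2 and 40.4% labelled DMSO. Neither pair of groups overlapped in the members' share. A two-sided exact permutation test on it gave p = 0.1 in each line, the smallest that 3 against 3 libraries allow. Over all genes the share was 30.3, 26.4 and 25.9% in parent cells labelled prexasertib, against 25.6, 23.9 and 24.2% labelled DMSO, also without overlap. In knockout cells the all-gene share averaged 25.8% labelled prexasertib and 25.5% labelled DMSO, and the groups overlapped. Whether the members' share differed more than that of all genes was not tested. A lower exonic count alone also raises this share.

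Single members differed in how far intronic reads followed exonic ones. ZNF441 had 4.74, 4.16 and 4.28 intronic reads per 1000000 exonic reads in parent cells labelled prexasertib, against 9.74, 9.34 and 9.76 in labelled DMSO, and it was lower under both scalings (-1.34 with intronic scaling, -1.13 with exonic scaling). ZNF844 (-1.21) and ZNF888 (-1.15) were likewise lower in intronic reads, with intronic scaling. ZNF43 had 63.3, 46.8 and 45.5 such reads, against 46.8, 42.0 and 42.3 in labelled DMSO, and passed under neither scaling (0.03, edgeR adjusted p = 0.802, and 0.25, edgeR adjusted p = 0.0939), while its exonic log2 fold change was -0.89. ZNF569 had -0.35 with intronic scaling and -0.14 with exonic scaling, the second without a call. Across 222 members Spearman's rho between exonic and intronic log2 fold changes was 0.39 in parent cells, where both come from the same 6 libraries.

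**Figure D5:**
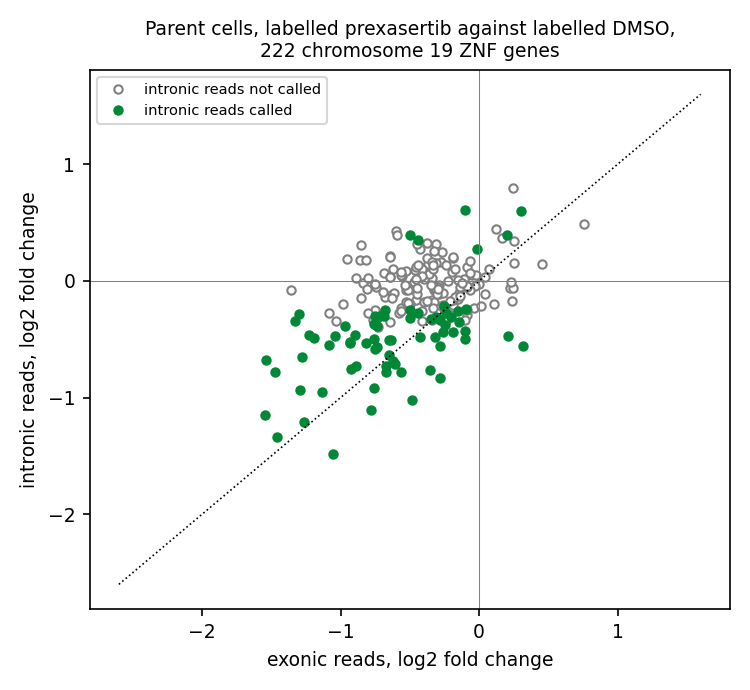
Log2 fold change of labelled prexasertib against labelled DMSO in parent cells for 222 members, from exonic reads on the x axis and from intronic reads with their own scaling on the y axis. Filled points passed the test on intronic reads, and most points lie above the dotted line of equal change.

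Partners of KRAB zinc finger proteins were called in both directions. Of 31 tested from a list of 32 symbols, one of them a second name, 14 were higher and 6 lower in parent cells labelled prexasertib, with a median of 0.09, beside 18.2% higher and 18.2% lower of all genes. ATF7IP, which stabilises SETDB1, had 75.7, 65.3 and 66.7 CPM, against 121, 114 and 119 CPM in labelled DMSO, a log2 fold change of -0.77 (SE 0.06, edgeR adjusted p = 8.50e-11). SETDB1 itself had 52.5, 54.7 and 52.9 CPM, against 73.3, 73.5 and 71.6 CPM (-0.45, SE 0.05), and MORC3, a chromatin ATPase, was lower by -0.55. TRIM28 had 474, 452 and 472 CPM, against 375, 429 and 406 CPM in labelled DMSO, and was higher by 0.21, and the histone deacetylase gene HDAC1 was higher by 0.50, at 163, 189 and 192 CPM against 127, 131 and 127 CPM.

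In knockout cells 2 partners were higher and 4 lower in labelled prexasertib, beside 6.11% higher and 6.83% lower of all genes. The DNA methyltransferase gene DNMT3B had 21.5, 23.1 and 22.5 CPM, against 38.1, 40.9 and 38.9 CPM in labelled DMSO, a log2 fold change of -0.81 (SE 0.06, edgeR adjusted p = 1.27e-10), and the demethylase gene KDM4A was lower by -0.30. TRIM28 was lower by -0.20, and DNMT3A was higher by 0.22. The interaction was above 0 for ATF7IP (0.56), MORC3 (0.49) and SETDB1 (0.38), as for most called members, and below 0 for HDAC1 (-0.42) and TRIM28 (-0.41).

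Between the lines, 14 partners were higher and 6 lower in knockout cells under labelled DMSO, where 19.6% of all genes were higher and 20.4% lower, among them the deacetylase genes HDAC2 (0.74) and HDAC1 (0.60), UHRF1 (0.50), which helps to maintain DNA methylation, and ATF7IP (-0.61). Under labelled prexasertib 10 were higher and 6 lower, where 14.5% of all genes were higher and 13.5% lower, among them the heterochromatin protein gene CBX3 (0.42), HDAC2 (0.40), the methyltransferase gene EHMT1 (-0.59) and the remodeller gene CHD3 (-0.31).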

How the data were processed

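Total RNA was sequenced on one paired-end run, per the labels' protocols. The submitters' processing notes name Picard 2.9.2, STAR 2.5.4a, Trimmomatic 0.39, Trim Galore 0.6.2 and hg19, with no roles. Deposited gene tables hold the authors' read counts (exonic, intronic, and outside other genes) and TPM, per the file headers. The annotation, counter and strand setting are not given in the sources used here, so antisense partners and near-identical paralogs cannot be told apart. Coordinates had 1 added to starts and ends. The 36 Y pseudoautosomal copies were left out, and unlisted genes taken as 0.

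The tests on counts used edgeR 4.0.16 under R 4.3.3 (filterByExpr, minimum count 10, TMM, robust quasi-likelihood F test, 4 group means, 12 libraries). SE is the log2 fold change over the root of F. DESeq2 1.42.0 and limma 3.58.1 (pseudocount 1 on TPM) were alternatives, with other scalings, filters, read classes and left-out libraries. Groups followed the records' labels.

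Members and lists were chosen with earlier results of these data known. Named were, per contrast, the 8 higher and 8 lower called members of largest fold change averaging 0 or more in log2 CPM and free of overlap between groups (not asked of the interaction), members with known roles, the 2 of smallest p per stretch in each treatment contrast, and the 4 partners of smallest p. Other members or partners given, ZNF132 and ZNF428 among them, were chosen after their values were seen. Exon matches to C2H2 and KRAB patterns used GENCODE v29, and promoters RefSeq GRCh38.p14.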

Additional observations from a re-analysis of the deposited data

Results flagged for a closer look

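The labelled prexasertib effect differed between knockout and parent cells, by the interaction test of edgeR, in 116 members above 0 and 2 below 0 on exonic reads. Of all genes, 9.53% were above and 7.32% below. On intronic reads with their own scaling 32 members were above 0 and 1 below 0, where 5.82% of all genes were above. With exonic scaling of the intronic reads 11 members were above 0 and 3 below, with a median of -0.09, where 1.97% of all genes were above and 6.19% below. Named members flagged by the test on exonic reads had interactions of 1.55 (ZNF222), 1.501 (ZNF93), 1.36 (ZNF441), 1.21 (ZNF773), 1.19 (ZNF569), 1.14 (ZNF675), 1.14 (ZNF226), 1.10 (ZNF416), 0.90 (ZNF43), 0.78 (ZNF420), 0.73 (ZNF350), 0.73 (ZNF274), 0.63 (ZNF432), 0.59 (ZNF304), 0.55 (ZNF331), 0.42 (ZNF91) and 0.41 (ZNF473). ZNF865 (-0.88) and ZNF575 (-0.49) were below 0. Groups of 3 libraries are too small for a test of single libraries that stand apart.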

How the results depend on the processing

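Replicate numbers did not pair the libraries, whose same-numbered deviations correlated at -0.119 to 0.164. Leaving aside the fits without 1 library, the alternatives to the main exonic test gave 112 to 167 members lower in parent cells. Those with an interaction above 0 numbered 73 to 129. These alternatives include a fit on exonic and intronic reads together and a fit on exonic reads outside other genes, with 185 of 223 members. The causes of the changes below were not tested. Named members gave 116 values under 1941 alternatives, of which 1786 kept direction and call, 150 lost the call and 5 turned round. Those were ZNF576 (-0.51) and ZNF93 (0.022) in the parent comparison, ZNF93 (-0.74) in the interaction and ZNF709 (-0.27) between lines under labelled prexasertib, all on reads outside other genes, and ZNF763 (-0.12) there on all reads.

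In knockout cells the members higher numbered 4 with DESeq2, 5 at a mean CPM of at least 1 and 8 with only the 2 groups fitted, and those lower 7 with limma on TPM and 35 with only the 2 groups. In parent cells those higher numbered 2 with DESeq2, 2 with no filter, 3 on all reads, 3 on reads outside other genes and 0 with only the 2 groups, and the median was -0.33 with total scaling, -0.32 on all reads and -0.20 on TPM. That count of 0 came from edgeR, beside 2 from DESeq2. Between lines under labelled DMSO the median was -0.40 with total scaling, -0.53 at a mean CPM of at least 1, -0.44 on all reads, -0.52 on reads outside other genes and -0.16 on TPM, with 16 higher and 98 lower on TPM. Under labelled prexasertib TPM gave 40 higher, 18 lower and a median of 0.035, beside a median of 0.075 over all genes. The interaction was below 0 in 4 members with total scaling, 1 on all reads and 4 with the replicate block, its median was 0.31 with total scaling, 0.30 on all reads and 0.19 on TPM, and 73 members were above 0 on TPM. With the replicate block 20 members were lower and 2 higher in knockout cells, 162 lower and 5 higher in parent cells, and 119 had an interaction above 0. The median of all genes moved to 0.11 with total scaling in parent cells and to 0.15 on TPM between lines under labelled DMSO.

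On intronic reads with exonic scaling, 32 members were higher and 34 lower in parent cells with a median of 0.080, 69 were lower with a median of -0.21 between lines under labelled DMSO, 2 were higher with a median of -0.26 under labelled prexasertib, and the interaction gave 11 above 0, 3 below and a median of -0.092. Intronic reads outside other genes, an alternative chosen after seeing the data, could be tested in 175 members, against 222 on all intronic reads. They gave 39 lower in parent cells, a median of -0.16 between lines under labelled prexasertib and 15 interactions above 0.

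Leaving out 1 library at a time gave, in knockout cells, 1 to 3 higher, 12 to 17 lower and medians of -0.070 to -0.045. Parent cells had 0 to 5 higher, 152 to 175 lower and medians of -0.46 to -0.40. Between lines, labelled DMSO gave 4 to 6 higher, 166 to 177 lower and medians of -0.52 to -0.49, and labelled prexasertib gave 10 to 16 higher, 46 to 61 lower and medians of -0.13 to -0.089. Interactions were above 0 in 108 to 141 members and below in 0 to 4, with medians of 0.37 to 0.43. The lowest and highest counts of members lower in parent cells came without labelled DMSO replicate 3 and without labelled prexasertib replicate 1.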
